A study of Mus musculus with 12 samples.

Results

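Dual-specificity MAP kinase phosphatases switch off MAP kinases by removing phosphate from both the threonine and the tyrosine of the kinase's activation loop. The 7 genes described here, Dusp1, Dusp2, Dusp4, Dusp5, Dusp6, Dusp7 and Dusp10, were taken by name from the 50600 genes in the files, and all 7 were among the 16396 genes with enough reads to test. None of the 7 passed the test for a difference among circadian times after adjustment over all genes tested. Dusp6, a phosphatase of the kinase ERK, came closest, with 73.1 ± 3.22 CPM in the subjective night and 62.1 ± 8.84 CPM in the subjective day (SD, n = 6 libraries each; CPM is the count scaled to a common library size). Dusp2 was the most abundant of the 7 and Dusp4 the least in every library.

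The series measured polyadenylated RNA by sequencing in CD8+ T cells, which kill infected cells. They came from lymph nodes of 8-week-old male C57BL/6J mice. All mice were in constant darkness, so that time is circadian time (CT), counted in hours of the internal clock, with the subjective night from CT12 onward when mice are active. The subjective night is represented by CT14, CT18 and CT22 and the subjective day by CT2, CT6 and CT10. Each of the 6 times was sampled on day 2 and day 1, with 1 library for each time and day, or 12 libraries in all. The labels name no mutant, treatment or transgene, and they do not say how many mice gave a library. The p-values therefore measure the spread between these libraries, which may hold technical as well as biological differences.

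MAP kinases carry signals from the T cell receptor, cytokine receptors and stress to the nucleus. The phosphatases fall into 3 sets by where they act and on which kinase. Dusp1, Dusp2, Dusp4 and Dusp5 encode nuclear enzymes whose genes respond quickly to stimulation, Dusp6 and Dusp7 encode cytoplasmic enzymes selective for ERK, and Dusp10 encodes an enzyme that acts mainly on the stress kinases JNK and p38. ERK activity switches on several of these genes, so that the phosphatases act as negative feedback on the pathway.

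The sequences just before the start sites are shown because a circadian or signal-driven pattern could be looked for against known binding letters there. RefSeq promoter sequences on GRCm38.p6 were found for 6 of the 7 genes, Dusp4 being the exception, and the 250 bases before each start were searched on both strands. The sequences below read 5′ to 3′ along the gene's strand. Capitals mark the E-box CACGTG, the letters bound by the clock proteins CLOCK and BMAL1, the cAMP response element TGACGTCA or its short form TGACG, and the CArG box, the site of serum response factor. The windows are chr17:26508473-26508722 on the minus strand for Dusp1, and on the plus strand chr2:127335909-127336158 for Dusp2, chr19:53528895-53529144 for Dusp5 and chr10:99262981-99263230 for Dusp6.
Dusp1: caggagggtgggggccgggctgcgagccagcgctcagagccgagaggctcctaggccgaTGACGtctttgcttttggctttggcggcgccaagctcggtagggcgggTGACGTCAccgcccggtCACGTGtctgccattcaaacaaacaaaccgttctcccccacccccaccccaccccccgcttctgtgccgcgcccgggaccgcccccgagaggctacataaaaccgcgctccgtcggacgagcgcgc
Dusp2: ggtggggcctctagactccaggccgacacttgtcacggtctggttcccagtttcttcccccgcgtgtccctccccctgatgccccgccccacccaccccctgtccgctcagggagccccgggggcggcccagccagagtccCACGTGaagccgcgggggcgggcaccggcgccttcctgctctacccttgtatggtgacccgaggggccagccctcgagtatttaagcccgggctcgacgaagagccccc
Dusp5: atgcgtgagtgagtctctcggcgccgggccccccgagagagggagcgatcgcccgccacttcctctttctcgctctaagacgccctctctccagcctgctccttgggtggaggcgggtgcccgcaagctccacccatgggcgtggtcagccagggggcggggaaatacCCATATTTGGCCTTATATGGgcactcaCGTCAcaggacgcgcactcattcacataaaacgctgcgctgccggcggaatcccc
Dusp6: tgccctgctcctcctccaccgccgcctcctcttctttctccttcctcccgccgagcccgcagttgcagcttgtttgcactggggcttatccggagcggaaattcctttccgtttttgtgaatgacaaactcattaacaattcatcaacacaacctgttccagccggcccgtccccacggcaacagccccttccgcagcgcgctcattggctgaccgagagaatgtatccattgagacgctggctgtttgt

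Dusp1 and Dusp2 held an E-box, 126 and 109 bases before the start, a motif in 6.02% of the 32851 promoter windows of that length. Dusp1 also held the full cAMP response element 143 bases before its start, present in 1.55% of windows. The short form, which lies within the full element on both strands, occurred in Dusp1 (also at 191 bases) and in Dusp5 (at 55 bases on the other strand), against 17.8% of windows. Dusp5 held 2 adjoining CArG boxes, 82 and 72 bases before the start, a motif in 1.47% of windows. Dusp6, Dusp7 and Dusp10 held none of these letters. Distances count from the RefSeq start sites of the windows, which differ from the GENCODE gene starts given below for some genes. The Dusp10 window, chr1:184034131-184034380, lies inside its GENCODE span, and the Dusp5 window reaches past the GENCODE start. No window of the 6 held the AP-1 letters TGANTCA (6.75% of windows), the STAT letters TTCNNNGAA (7.02%) or the glucocorticoid response element (0.00913%). A match describes letters only, and the absence of one says nothing of the factor.

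Level differed far more between the genes than within any of them over time. In TPM, a unit of transcript abundance that divides by transcript length and so allows genes to be compared, Dusp2 averaged 209.4 ± 23.3 (SD, n = 12 libraries), followed by Dusp1 at 53.9 ± 11.7, Dusp6 at 37.4 ± 5.05, Dusp7 at 34.8 ± 4.08, Dusp10 at 21.3 ± 1.93, Dusp5 at 13.7 ± 1.83 and Dusp4 at 2.58 ± 0.401. Dusp2 was above Dusp1 in 12 of 12 libraries, with means 3.88-fold apart and ranges that did not overlap (178.1 to 247.8 TPM against 36.4 to 73.4 TPM). Dusp1 was above Dusp6 in 12 of 12 libraries, by 1.44-fold on average, although the ranges over libraries overlapped. Dusp6 and Dusp7 were the only neighbours in this order that exchanged places, with Dusp6 higher in 8 of 12 libraries. Dusp5 stood 5.33-fold above Dusp4 in TPM.

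**Figure D1:**
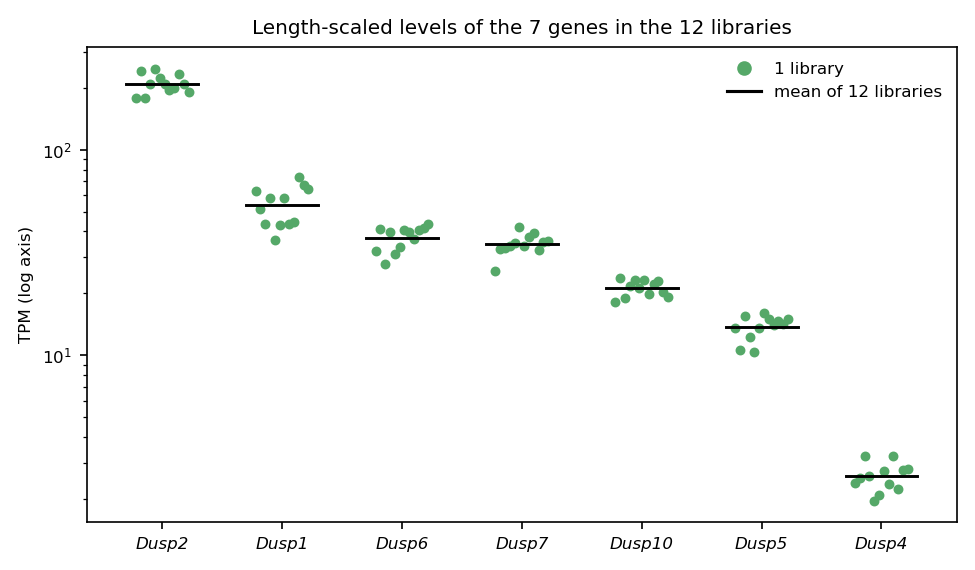
TPM on a log axis (y) for each of the 7 genes (x, ordered by mean), with 1 point per library and a bar at the mean of 12 libraries. Dusp2, between 178.1 and 247.8 TPM, lies apart from Dusp1, which lies between 36.4 and 73.4 TPM, and Dusp4 lies lowest at 1.96 to 3.24 TPM.

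The summed TPM of the 7 genes ranged over the libraries between 320.4 and 420.6 (median 378.1). Dusp2, first found as a phosphatase of activated T cells, made up 51.3% to 64.2% of that sum, and Dusp1 9.44% to 18.9%. The remaining genes of the same enzyme class were low. Dusp16, a JNK and p38 phosphatase, averaged 2.97 ± 0.538 TPM and Dusp9, an ERK phosphatase, 0.591 ± 0.184 TPM (SD, n = 12 libraries each). Dusp8 had 14 counts over all 12 libraries and was not tested.

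The nuclear, rapidly inducible genes are given first. Dusp1 (ENSMUSG00000024190.6 in the counts) encodes a phosphatase of p38, JNK and ERK. The GENCODE M21 annotation holds a later version, ENSMUSG00000024190.7, at chr17:26505590-26562128 on the minus strand of GRCm38, overlapping Ergic1 on the plus strand. The promoter window shown above lies inside that span, and the span of the counted version is not known here. Dusp1 CPM in the day 2 libraries was 66.9 at CT2, 75.5 at CT6, 55.1 at CT10, 57.4 at CT14, 97.0 at CT18 and 78.9 at CT22, and in the day 1 libraries 98.8, 55.2, 47.0, 76.1, 55.4 and 91.1 at the same times. The time means were lowest at CT10 and highest at CT22, but the 2 libraries of CT18 were 1.75-fold apart. The spread within times (pooled SD 17.6 CPM) exceeded the spread of the time means (SD 12.7 CPM). Dusp1 varied more over the 12 libraries than any of the other 6, with a coefficient of variation of 24.98% and 2.10-fold between the highest and lowest library, on 1328 to 2660 counts per library. The fitted wave of 24 h had an amplitude of 0.33 ± 0.10 log2 (SE), with its peak at 22.3 ± 1.14 h, and did not pass (adjusted p = 0.297 by the Benjamini-Hochberg method, edgeR quasi-likelihood test).

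Dusp2 (ENSMUSG00000027368.6, chr2:127336159-127338376, plus strand), a nuclear phosphatase of ERK and p38, had 251.0 CPM at CT2, 213.6 at CT6, 231.6 at CT10, 206.5 at CT14, 236.8 at CT18 and 188.8 at CT22 on day 2, and 224.3, 176.5, 251.6, 212.1, 200.8 and 217.8 CPM at those times on day 1. The means were highest at CT10 and CT2 and lowest at CT6, in the middle of the same phase, and the coefficient of variation was 10.6%. The fitted 24 h amplitude was 0.03 ± 0.06 log2 (SE), an error larger than the value. For Dusp2 the test of the 6 times gave an adjusted p of 0.479 (edgeR quasi-likelihood).

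Dusp4 (ENSMUSG00000031530.6, chr8:34807297-34819894, plus strand) encodes an inducible nuclear phosphatase. On day 2 its CPM was 5.63 at CT2, 5.72 at CT6, 5.24 at CT10, 5.67 at CT14, 5.27 at CT18 and 6.25 at CT22, and on day 1 it was 6.76, 7.37, 4.53, 6.25, 7.24 and 6.61. Day 2 was higher at 1 of the 6 times, CT10, but the difference of day 2 minus day 1, -0.19 ± 0.11 log2 (SE), did not pass (adjusted p = 1, edgeR quasi-likelihood). The summed B cell markers were also lower on day 2, at 152.7 to 227.3 CPM in day 2 libraries and 215.5 to 304.1 CPM in day 1 libraries, with 9 of 9 markers lower on day 2 (-0.24 to -0.53 log2, each with an adjusted p of 1), and their part in the Dusp4 values was not tested. Dusp4 had the fewest reads of the 7, with 128 to 207 counts per library.

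Dusp5 (ENSMUSG00000034765.6, chr19:53529109-53542431, plus strand, with the antisense gene AC137853.2) encodes a nuclear phosphatase that acts on ERK alone. It had 21.2 CPM at CT2, 23.9 at CT6, 27.4 at CT10, 30.7 at CT14, 28.3 at CT18 and 28.4 at CT22 on day 2, against 32.2, 29.9, 20.3, 31.5, 27.1 and 28.1 CPM on day 1. The 6 night libraries lay close together, at 27.1 to 31.5 CPM, and the 6 libraries of the subjective day lay between 20.3 and 32.2 CPM, on both sides of them. The 2 libraries of CT2 were 1.52-fold apart. Night minus day was 0.17 ± 0.11 log2 (SE; adjusted p = 0.412, edgeR quasi-likelihood).

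Of the cytoplasmic ERK phosphatases, Dusp6 (ENSMUSG00000019960.8, chr10:99263231-99267489, plus strand), whose transcription is a standard readout of ERK activity, had 75.6 CPM at CT2, 66.3 at CT6, 59.7 at CT10, 72.5 at CT14, 75.4 at CT18 and 75.6 at CT22 on day 2, and 65.6, 51.6, 54.1, 68.6, 70.2 and 76.5 CPM on day 1. The 4 libraries of CT6 and CT10 and the CT2 library of day 1 were below all 6 night libraries, and the CT2 library of day 2 lay among the night values. Night minus day was 0.24 ± 0.06 log2 (SE; unadjusted p = 0.00304, adjusted p = 0.0841, edgeR quasi-likelihood). The fitted 24 h amplitude was 0.21 ± 0.05 log2 with its peak at 20.3 ± 0.82 h (SE; unadjusted p = 0.00162, adjusted p = 0.238, edgeR quasi-likelihood). DESeq2 called Dusp6 in the night comparison (adjusted p = 0.0185), in the 24 h test (0.0157) and among the 6 times (0.034). Over all genes it called 521, 246 and 516 in those tests, where edgeR called 269, 0 and 42. Without both CT2 libraries the edgeR difference was 0.34 log2 and passed (adjusted p = 0.0127), as did the 24 h test (adjusted p = 0.043). Dusp6 averaged 70.6 CPM at CT2, the same as at CT14, so that leaving CT2 out raises the difference. Calls over all genes also rose in that setting, to 1239 at night and 431 in the 24 h test. Over the 22 other settings tried, its adjusted p in the night comparison lay between 9.35e-05 and 0.427, all with the night higher.

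Dusp7 (ENSMUSG00000053716.9, chr9:106368632-106375724, plus strand), the other cytoplasmic ERK phosphatase, had 64.6 CPM at CT2, 67.5 at CT6, 75.3 at CT10, 75.9 at CT14, 67.2 at CT18 and 71.4 at CT22 on day 2, against 57.1, 61.4, 69.5, 69.7, 73.8 and 71.6 CPM on day 1. The 4 libraries of CT2 and CT6 included the 3 lowest values, and the CT10 values were among the night ones, unlike those of Dusp6. Night libraries averaged 71.6 ± 3.04 CPM and libraries of the subjective day 65.9 ± 6.40 CPM (SD, n = 6 each), with ranges that overlapped. The difference was 0.12 ± 0.05 log2 (SE; adjusted p = 0.212, edgeR quasi-likelihood). The fitted peak for Dusp7 was at 15.1 ± 1.23 h with an amplitude of 0.11 ± 0.04 log2 (SE; adjusted p = 0.316, edgeR quasi-likelihood).

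Dusp10 (ENSMUSG00000039384.8, chr1:184013302-184075636, plus strand, overlapping 1700056E22Rik on the minus strand), the JNK and p38 phosphatase, had 53.8 CPM at CT2, 47.6 at CT6, 47.5 at CT10, 44.95 at CT14, 50.8 at CT18 and 41.7 at CT22 on day 2 and 47.8, 40.6, 50.5, 51.2, 48.3 and 45.2 CPM on day 1. Highest and lowest library were 1.33-fold apart, as for Dusp7, and the means of the 6 times differed about as much (SD 3.03 CPM) as the libraries within a time (pooled SD 3.57 CPM). Night minus day was -0.03 ± 0.06 log2 (SE; adjusted p = 0.829, edgeR quasi-likelihood).

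**Figure D2:**
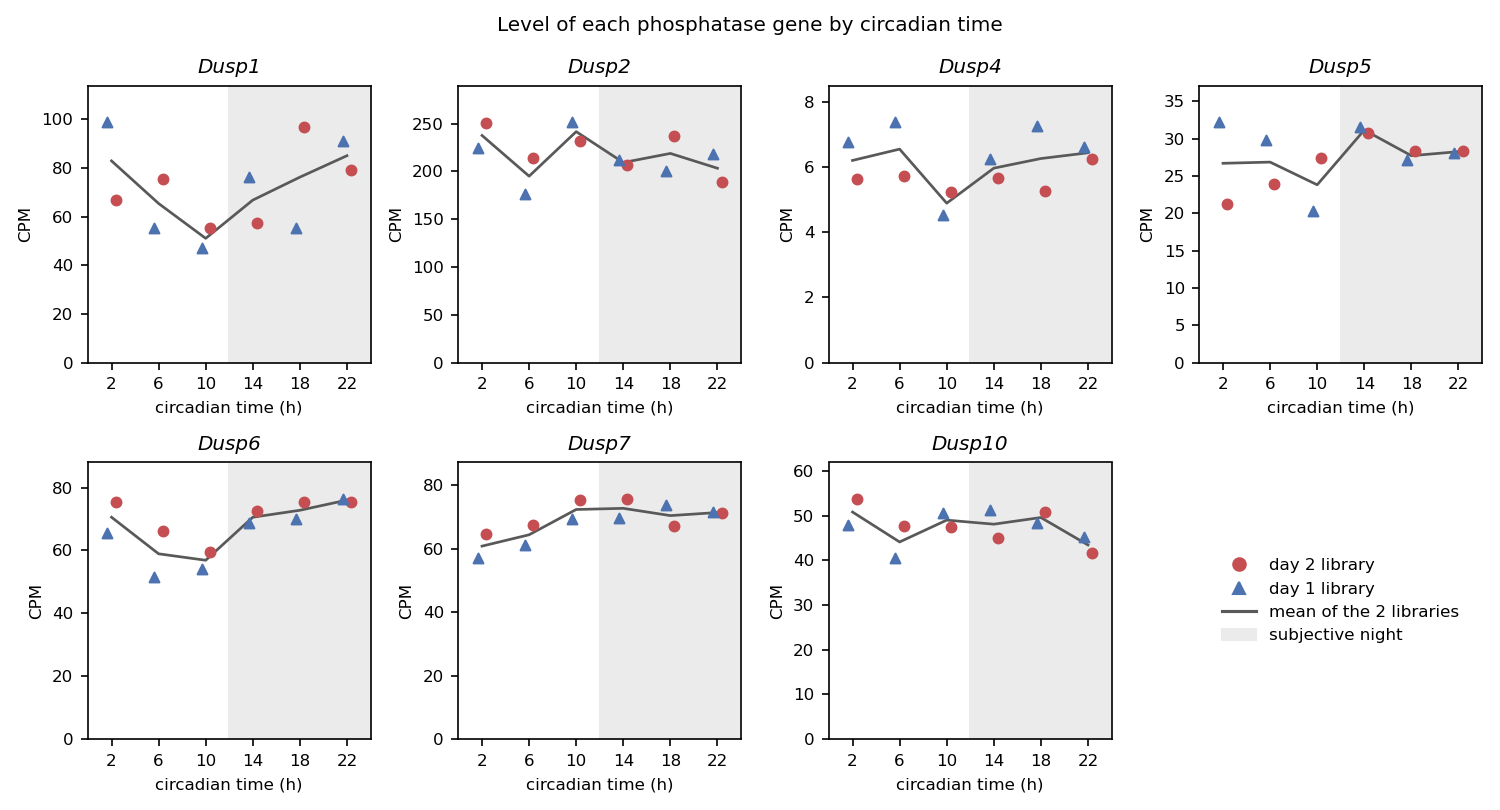
CPM (y, from 0) of each gene against circadian time in hours (x), with circles for day 2 libraries, triangles for day 1 libraries, a line through the means of the 2 libraries and shading for the subjective night. Dusp6 is lowest at CT6 and CT10, Dusp1 and Dusp4 are lowest at CT10, and the 2 libraries of Dusp1 at CT18 lie 1.75-fold apart.

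Across the whole set, 0 of 7 passed the test of the 6 times at an adjusted p under 0.05, a test that called 0.256% of all genes (edgeR quasi-likelihood). At an unadjusted p under 0.05 it held 1 of 7, Dusp6, where 12.7% of all genes did. The 24 h test called 0 of 7, and 0% of all genes, with 3 of 7 (Dusp1, Dusp6 and Dusp7) at an unadjusted p under 0.05 where 13.3% of all genes lay. The night comparison called 0 of 7 against 1.64% of all genes, and 2 of 7 (Dusp6 and Dusp7) had an unadjusted p under 0.05 against 18.5% in either direction and 9.05% higher at night. In 5 of 7 the night mean was above that of the subjective day on the log2 scale, against 48.3% of all genes, with a median difference of 0.12 log2 over the 7 genes and -0.0058 over all genes. DESeq2 called Dusp6 in all 3 of these tests, among 516, 246 and 521 genes in that order, and no other of the 7.

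None of the 7 passed the comparison of the days. Day 2 minus day 1 called 0 of 7 and 0% of all genes (edgeR quasi-likelihood). Dusp6, higher on day 2 at 5 of the 6 times, had a difference of 0.14 ± 0.05 log2 (SE, unadjusted p = 0.0175), the only one of the 7 with an unadjusted p under 0.05, where 1.82% of all genes lay in either direction and 0.665% with day 2 higher. DESeq2 also called 0 of 7. The test of whether the 24 h wave differed between days called 0 of 7 and 0% of all genes, with 4.44% of all genes and 0 of the 7 at an unadjusted p under 0.05.

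At CT10, the end of the subjective day, 4 of the 7 genes (Dusp1, Dusp4, Dusp5 and Dusp6) had their lowest mean, against 19.9% of all genes. This contrast was chosen after the values were seen. Both CT10 libraries were below the other 10 in Dusp1, by 55.1 CPM against 55.2 CPM for the nearest, and in Dusp4, an order that 2.37% of all genes had. CT10 minus the mean of the other times was -0.55 ± 0.21 log2 for Dusp1, -0.36 ± 0.15 for Dusp4, -0.29 ± 0.09 for Dusp6 and -0.24 ± 0.14 for Dusp5 (SE). It was 0.19 ± 0.09 log2 for Dusp2, 0.09 ± 0.07 for Dusp7 and 0.06 ± 0.08 for Dusp10. It called 0 of 7 (adjusted p of 0.301 for Dusp6 and 0.357 for Dusp1, edgeR quasi-likelihood) against 0.0061% of all genes. DESeq2 also called 0 of 7. An unadjusted p under 0.05 was found for 3 of 7 (Dusp1, Dusp4 and Dusp6), all lower at CT10, against 12.3% of all genes in either direction and 5.78% lower.

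**Figure D3:**
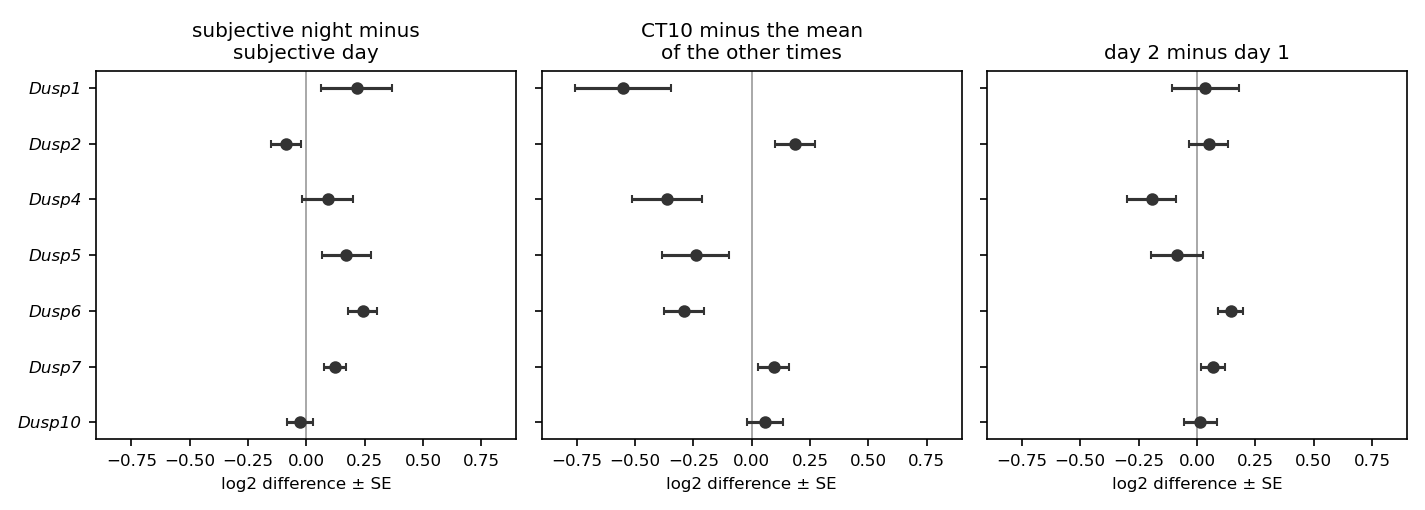
Log2 differences with their SE (x) for each gene (y) in 3 comparisons: night minus day phase, CT10 minus the mean of the other times, and day 2 minus day 1. The CT10 panel holds the widest spread, between -0.55 for Dusp1 and 0.19 for Dusp2, and none of the points passed after adjustment.

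The libraries also held RNA of cells other than CD8+ T cells, and its amount moved with some of these genes. Summed CD8 T cell markers (Cd8a, Cd8b1, Cd3d, Cd3e, Cd3g and Trac) lay between 4309 and 5394 CPM, with all 6 tested. Summed over 14 monocyte and macrophage markers, the level was 1144 to 2059 CPM in night libraries and 880.8 to 1853 CPM in libraries of the subjective day, and the CT10 library of day 1 was lowest. Taken singly, 13 of the 14 were higher at night (median 0.65 log2), as were 5 of the 6 tested neutrophil markers (0.83 log2), against 48.3% of all genes. An unadjusted p under 0.05 was found for 10 of 14 and 5 of 6, against 18.5% of all genes, and none passed after adjustment (edgeR quasi-likelihood). Of the CD8 T cell markers, 1 of 6 was higher at night. The 8 dendritic cell markers summed to 368.2 to 718.6 CPM, with the CT2 library of day 2 and the CT10 library of day 1 (389.6 CPM) far below the other 10 (524.9 CPM or more). The sums for 5 CD4 T cell markers (73.2 to 117.2 CPM) and 4 NK cell markers (17.5 to 34.9 CPM) were also lowest in those 2 libraries. Ranges for the rest were 152.7 to 304.1 CPM over 9 B cell markers, 141.4 to 195.3 CPM over 11 stromal and endothelial markers and 12.6 to 104.3 CPM over the 6 of 7 neutrophil markers tested, with Ly6g among the genes not tested. Of 4 erythroid and platelet markers 1 was tested, Hbb-bs, at 0.28 to 2.23 CPM. In bulk RNA, fewer cells of a type and less RNA per cell cannot be told apart. The 2 libraries of CT2 differed from each other more than any other pair, with a chi-square of 35.9 per degree of freedom over genes against 2.87 to 9.59 for the other times.

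Dusp5 was tied most closely to those sums, in relations chosen after the data were seen. Over the 12 libraries its log2 CPM correlated with the log2 dendritic cell sum (Pearson r = 0.91, permutation p = 0.00046, adjusted p = 0.0129 over 56 relations; Spearman rho = 0.78, permutation p = 0.00473, adjusted p = 0.132). Within days r was 0.90 on day 2 and 0.93 on day 1, and without the 2 libraries farthest from the median it was 0.64 (permutation p = 0.0432). The relation of Dusp5 with the CD4 T cell sum was of like size (r = 0.89, permutation p = 0.00033, adjusted p = 0.0129), and without the 2 farthest libraries it was 0.61 (permutation p = 0.0661). By rank it did not pass (rho = 0.66, permutation p = 0.022, adjusted p = 0.175). Both relations of Dusp5 were thus weaker without those libraries, by about the same amount. The relation with the NK cell sum, 0.80 with all libraries (adjusted permutation p = 0.0445), was 0.07 without the 2 farthest. By rank it did not pass (rho = 0.45, adjusted permutation p = 0.411). The CT2 library of day 2 and the CT10 library of day 1, at 21.2 and 20.3 CPM, were the lowest of the 12 in Dusp5. What part those cells have in its level was not tested. Of the 56 relations of the 7 genes with marker sums, 10 passed by Pearson r with all libraries, and 0 passed without the CT6 library of day 2 or without the CT10 library of day 1. By rank, only the relation of Dusp4 with the B cell sum passed.

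Dusp2 and Dusp10 correlated instead with the summed CD8 T cell markers. That list holds the general T cell genes Cd3d, Cd3e, Cd3g and Trac beside Cd8a and Cd8b1. For Dusp2, r was 0.80 (permutation p = 0.00192, adjusted p = 0.0358), with 0.77 on day 2 and 0.85 on day 1, and for Dusp10 it was 0.79 (permutation p = 0.00273, adjusted p = 0.0382). By rank neither passed, with rho = 0.60 for Dusp2 (permutation p = 0.0433, adjusted p = 0.202) and 0.65 for Dusp10 (permutation p = 0.0251, adjusted p = 0.175). Without the 2 farthest libraries r was 0.60 for Dusp2 (permutation p = 0.0633) and 0.55 for Dusp10 (permutation p = 0.102), again smaller than with all 12. Dusp2 ran against the CD4 T cell and dendritic cell sums, with r = -0.73 for each (adjusted permutation p = 0.0445), which were -0.53 and -0.46 without the farthest 2. By rank neither of these passed (rho = -0.66 for each, adjusted permutation p = 0.175). Dusp4 correlated with the B cell sum (r = 0.72, adjusted permutation p = 0.0445; rho = 0.86, adjusted permutation p = 0.0409), and kept r = 0.83 without the 2 farthest libraries (permutation p = 0.00371), with 0.45 on day 2 and 0.91 on day 1. The relation of Dusp4 with the CD4 T cell sum was 0.71 (adjusted permutation p = 0.0445), with 0.19 on day 2 and 0.95 on day 1. By rank it did not pass (rho = 0.54, adjusted permutation p = 0.283), and r was 0.49 without the 2 farthest libraries (permutation p = 0.159).

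For Dusp6, the stromal and endothelial sum gave r = -0.72 (adjusted permutation p = 0.0445), with -0.44 on day 2 and -0.80 on day 1, and -0.68 without the 2 farthest libraries. By rank the relation with this sum did not pass (rho = -0.61, permutation p = 0.04, adjusted p = 0.202). That sum is mostly 1 gene, Pecam1, an adhesion molecule of endothelium that leukocytes also carry, which averaged 146.0 CPM while the other 10 markers averaged 0.348 to 6.11 CPM each. Pecam1 was -0.23 ± 0.04 log2 at night minus day (SE; adjusted p = 0.0206, edgeR quasi-likelihood), whereas 6 of the 11 markers had a higher night mean (median 0.08 log2). Dusp6 had r = 0.54 with the neutrophil sum (permutation p = 0.0718, adjusted p = 0.183), with 0.20 on day 2 and 0.89 on day 1. With the monocyte and macrophage sum r was 0.50 (permutation p = 0.0947, adjusted p = 0.23). Neither passed, and without the 2 farthest libraries r was 0.75 (permutation p = 0.0124) and 0.63 (permutation p = 0.0449). Dusp1 followed the monocyte and macrophage sum at r = 0.69 (permutation p = 0.014, adjusted p = 0.0711) and rho = 0.72 (permutation p = 0.0101, adjusted p = 0.151), which did not pass. Without the 2 farthest libraries r was 0.67 for Dusp1 (permutation p = 0.0427). Its r with the neutrophil sum was 0.66 (permutation p = 0.0212, adjusted p = 0.0914), and 0.77 without the 2 farthest (permutation p = 0.00998). The part of other cells in either gene was not tested.

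**Figure D4:**
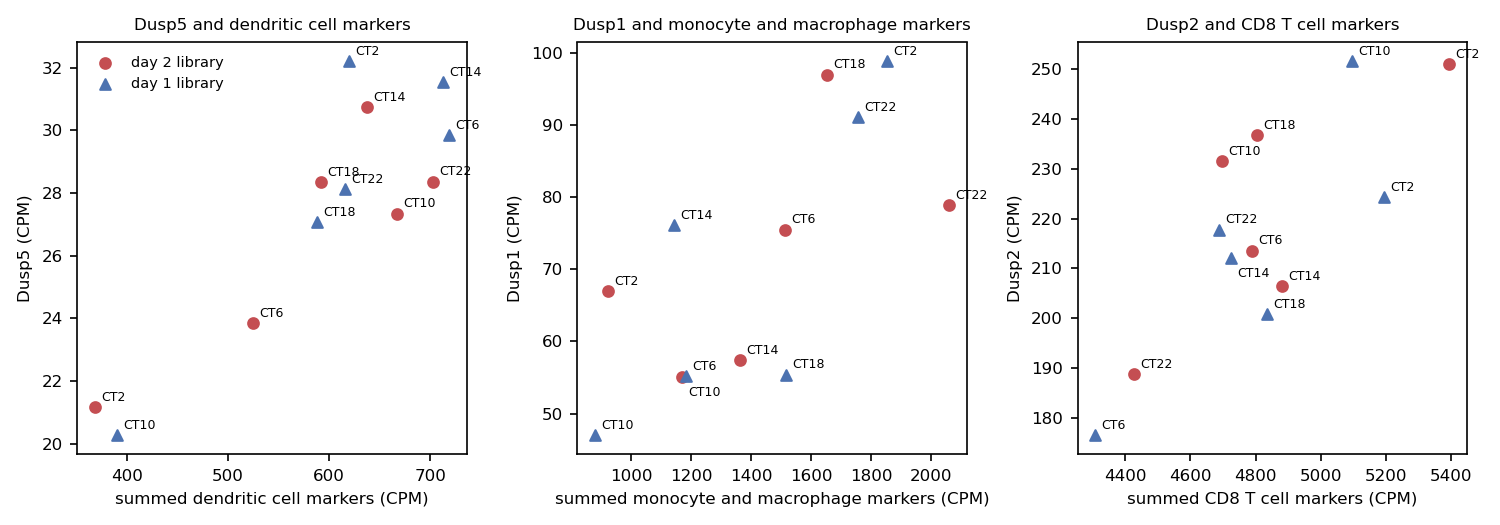
Each panel plots the CPM of 1 gene (y) against the summed CPM of a marker list (x), with circles for day 2 and triangles for day 1 libraries, labelled by circadian time. Dusp5 is lowest, at 21.2 and 20.3 CPM, in the 2 libraries with the lowest dendritic cell sums, and the axes do not start at 0.

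Among themselves, 1 of the 21 pairs of genes passed. Dusp2 and Dusp10 correlated over the 12 libraries (Pearson r = 0.84, permutation p = 0.00069, adjusted p = 0.0145; Spearman rho = 0.66, permutation p = 0.0242, adjusted p = 0.254). The value was 0.96 on day 2 and 0.74 on day 1, and 0.76 without the CT6 and CT10 libraries of day 1, the 2 farthest from the median of Dusp2 (permutation p = 0.0113). No pair passed without the CT2 or CT22 library of day 2 or without the CT6 library of day 1, and 2 passed without the CT2 library of day 1 or with the day as a replicate block. Dusp2 and Dusp4 ran in opposite directions, at r = -0.74 (permutation p = 0.00543, adjusted p = 0.057), which did not pass. Dusp1 and Dusp6 had r = 0.61 (permutation p = 0.0362, adjusted p = 0.205). Dusp6 and Dusp7 were not among the pairs that passed, although both encode cytoplasmic ERK phosphatases.

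**Figure D5:**
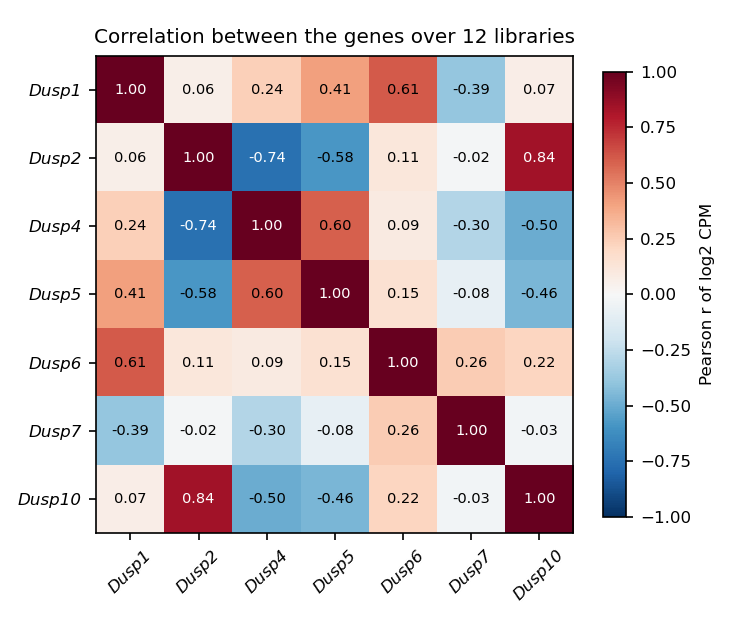
Pearson r of log2 CPM over 12 libraries for each pair of the 7 genes (both axes), with colour between -1 and 1. Dusp2 with Dusp10 is the highest at 0.84 and Dusp2 with Dusp4 the lowest at -0.74.

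The genes most like each of the 7 were found by Pearson r of log2 CPM over the 12 libraries among 9474 genes, as a description, since all share the same libraries. For Dusp1 they were Dnajb9 (0.93), Klf4 (0.93) and Fosb (0.92), where Klf4 and Fosb encode transcription factors. Dusp5 had the closest likenesses of the 7, with Bcl2a1a (0.98), Apol7c (0.97) and Serpinb6b (0.97), and Apol7c was 80.6 to 220.6 CPM over the libraries. For Dusp6 they were Calr (0.92), an endoplasmic reticulum chaperone, Actr3 (0.92), part of the complex that branches actin, and Taf15 (0.91). Those of Dusp2 were Rab6b (0.89), Mmab (0.88) and Sys1 (0.88), and those of Dusp4 were Cd24a (0.84), Mthfsl (0.83) and Idi1 (0.81). Dusp7 was most like Kif1c (0.92), Dhx8 (0.91) and Rgmb (0.91), and Dusp10 most like Twnk (0.92), Snrnp48 (0.91) and Myg1 (0.90).

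The rest of the pathway gave no calls in the test of the 6 times (edgeR quasi-likelihood), and its named genes are the 2 of smallest p in each list. Passing genes were 0 of 2 other MAP kinase phosphatases (Dusp16 and Dusp9, each with an adjusted p of 0.605 or more), 0 of 11 atypical dual-specificity phosphatases (Styxl1 0.345, Dusp23 0.415), 0 of 9 MAP kinases (Mapk11 0.398, Mapk3 0.477), 0 of 7 MAP kinase kinases (Map2k1 0.411, Map2k3 0.503), 0 of 17 Ras and Raf genes (Nf1 0.317, Rasa2 0.388) and 0 of 13 stress kinase inputs (Map3k5 0.376, Tab1 0.388). At an unadjusted p under 0.05 these 6 lists held 0, 1, 0, 0, 2 and 2 genes, where 12.7% of all genes lay. The median night minus day difference was 0.12 log2 over the other MAP kinase phosphatases, 0.08 over the MAP kinases and 0.05 over the MAP kinase kinases, and within 0.01 of 0 over the other 3 lists. It was 0.18 log2 over 9 tested ERK feedback genes and 0.14 over 19 tested immediate early genes, and differences between lists were not tested. In the night comparison 0 of 9 and 0 of 19 passed, against 1.64% of all genes, and 4 and 7 had an unadjusted p under 0.05, against 18.5% of all genes. Spred1, an inhibitor of Ras signalling, had a night minus day difference of 0.30 ± 0.07 log2 (SE; adjusted p = 0.0723, edgeR quasi-likelihood) and Phlda1 0.30 ± 0.10 (adjusted p = 0.151). Both were picked for a small p in these same libraries, which favours large differences. Of the 9 tested ERK feedback genes, 7 were higher at night and the rest lower, where 48.3% of all genes were higher.

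Of the immediate early genes, Egr2 had a night minus day difference of 0.24 ± 0.06 log2 (SE; adjusted p = 0.0673, edgeR quasi-likelihood) and Klf6 0.22 ± 0.07 (adjusted p = 0.151). Mean expression was higher at night in 19 of 19, against 48.3% of all genes, and lowest at CT10 in 12 of 19, against 19.9%. CT10 is also the time at which Dusp1 and Dusp6 were lowest. The 19 genes share the same libraries. Some night differences were near 0, as in Ier2 (0.002 ± 0.05 log2), Junb (0.003 ± 0.10) and Myc (0.008 ± 0.07, SE), while 7 of 19 had an unadjusted p under 0.05 (edgeR quasi-likelihood). Fosb was -0.86 ± 0.29 log2 at CT10 against the mean of the other times (SE; adjusted p = 0.346, edgeR quasi-likelihood), beside -0.55 for Dusp1. The 14 monocyte and macrophage markers were lowest at CT10 in 12 of 14, with a median of -0.84 log2, and higher at night in 13 of 14, with a median of 0.65 log2. Their part in these values was not tested. For comparison, genes of 2 lists outside the pathway did change in the same libraries. Heat shock genes passed in 12 of 16 among the 6 times (Hsph1, adjusted p = 3.9e-05, and Stip1, 0.000403, edgeR quasi-likelihood), against 0.256% of all genes. In the night comparison 12 of 16 passed as higher, against 0.646%, with Hsph1 at 0.84 ± 0.05 log2. The mean was highest at CT14 in 15 of 16, against 18.2% of all genes. Hsph1 had 332.9 and 366.1 CPM at CT14 and 133.6 to 160.2 CPM at CT18 and CT22. Glucocorticoid responsive genes passed in 2 of 15, Ddit4 (adjusted p = 0.0216) and Cxcr4 (0.0227, edgeR quasi-likelihood). Dusp1, often counted among the targets of glucocorticoids, did not pass, like most of that list. The list went both ways at CT10, with 6 of 15 lower there than the mean of the other times, and a part of glucocorticoids was not tested.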

How the data were processed

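RNA of CD8+ T cells had been made with TRIzol and RNeasy and libraries with a KAPA polyA kit, per the labels' protocols. The submitters' processing notes name bcl2fastq 2.19, Trimmomatic 0.35, STAR 2.5.1b, RSEM 1.2.28 and the build GRCm38, and the annotation version is not given in the sources used here. As deposited by the authors, the tables held raw read counts per gene, with no normalization, and RSEM tables with expected counts and TPM. Column 4 of the counts was used, where 11.4% to 13.9% of fragments matched no gene, against 77.6% to 80.9% in the other stranded column. Counts on genes were 24689964 to 33497078 per library, and rows that name no gene (29.3% to 31.2%) were left out.

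Symbols and positions came from GENCODE M21, which matched 50376 of 50600 IDs. The count tests ran in edgeR 4.0.16 (R 4.3.3): filterByExpr by circadian time kept 16396 genes, with TMM scaling and quasi-likelihood F tests adjusted over all of them. CPM uses TMM-scaled library sizes. The 24 h test fits a cosine and a sine, and the log2 differences are for night minus day phase, CT10 minus the mean of the other times, and day 2 minus day 1. Correlations used 100000 permutations of log2 CPM (prior count 2) and are two-sided.

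Alternatives were RLE scaling, no filter, DESeq2 1.42.0, expected counts rounded to whole numbers, unstranded counts, limma 3.58.1 on log2(TPM + 1) and log2(TPM + 0.1), the day as a replicate block, and leaving libraries out. The replicate number is the day in the labels, so it pairs the libraries of a day. Over 10153 genes, the deviations of the 15 pairs of times correlated between -0.60 and 0.35 (median 0.08), with 6 above 0.1. The tests were also run on simulated counts. A wave of amplitude 0.2 log2 was recovered in 28% of 50 genes among the 6 times, 46% in the 24 h test and 10% at night. Those counts left out the quasi-dispersion, the further spread fitted for each gene, and so cannot show the power in these data. The genes, lists and tests were chosen with earlier results of these data known. Named genes were the 7, from each other list the 2 genes of smallest p among the 6 times, and for each of the 7 the 3 genes of highest r with a mean of at least 5 CPM. Outside that rule, Ier2, Junb and Myc were named for night differences near 0, Dusp8 as not tested, and some cell type markers, among them Pecam1 as the largest part of its sum.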

Additional observations from a re-analysis of the deposited data

How the results depend on the processing

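Of 917 values over 42 results on the 7 genes, 900 kept their side of the threshold and 17 passed only under an alternative. No main result on the 7 genes passed, so that no call could be lost. Without a filter on low counts, the edgeR adjusted p for the 6 times was 1.3e-16 for Dusp1, 1.64e-05 for Dusp6 and 0.01 for Dusp2, and Dusp1 and Dusp6 also passed at night (0.000727 and 9.35e-05), in the 24 h test (0.0265 and 0.0165) and at CT10 (1.7e-12 and 0.00158). That fit shrank the Dusp1 quasi-dispersion to 0.638, against 5.92 with the filter. Dusp6 also passed at night without the day 1 (0.0488) or day 2 (0.0246) library of CT2 or the day 2 library of CT6 (0.0424). In the night comparison Dusp10 is near 0 and took the other sign in 7 of 22 settings. For day 2 minus day 1, the sign changed in 5 settings for Dusp1, 4 for Dusp10, 2 for Dusp2 and 1 for Dusp5.

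Counts over all genes changed more. Among the 6 times, 42 genes became 2146 with no filter, 516 with DESeq2, 24, 27 and 71 with limma on log2(TPM + 1), log2(TPM + 0.1) and unfiltered TPM, 20 with the replicate block, 527 without both CT2 libraries, and 6 to 1745 without single libraries. For the 24 h test, 0 became 323 with no filter, 246 with DESeq2, 431 without both CT2 libraries, and 0 to 145 without single libraries. At night, 269 became 1554, 521, 30, 29, 57, 92 (replicate block) and 1239 under the settings named for the 6 times, in that order, and 9 to 1765 without single libraries. Between days, 0 became 6 with DESeq2, 1 with unfiltered limma, 6 without both CT2 libraries, and 0 to 2 without single libraries. For the wave by day, leaving out single libraries gave 0 to 1. At CT10, 1 became 938 with no filter, 73 with DESeq2, 3 with expected counts, 6, 4 and 18 with limma, 272 without both CT2 libraries, and 0 to 788 without single libraries. Correlated pairs went to 2 with the replicate block, and to 0 to 2 without single libraries, and the 10 marker relations to 0 to 9 without them. The cause was not tested. The replicate block changed no edgeR call on the 7 genes.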
